A study of Mus musculus with 6 samples.

Results

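Autophagy genes were examined in RNA sequencing of macrophages grown from bone marrow (BMDMs). The cells came from wild-type mice and from animals that lack the fatty acid desaturase gene *Scd2* in myeloid cells. The 48 genes were chosen by name, with earlier results of these data known. They are the core machinery of autophagy with its cargo receptors, fusion factors and MiT/TFE transcription factors, 48 of the 40481 genes in the count table. All 48 passed the filter on low counts and belong to the 14778 genes tested. The study asked what loss of *Scd2* does to macrophages, and these libraries were made from unstimulated cells. The paper used adult male and female mice for its experiments in general. Bone marrow was differentiated for 5 to 6 days with 10% medium conditioned by CMG cells, a source of macrophage colony-stimulating factor. The macrophages were then kept in 2% of that medium. In the *Scd2*-m/-m group (n = 3 libraries) floxed *Scd2* alleles were deleted by Cre recombinase under the lysozyme M promoter, which is active in macrophages, granulocytes and their precursors. The comparison group was wild type (n = 3 libraries), and whether those mice carried floxed alleles or Cre was not stated in the material used. Sex, batch and the number of animals behind each library are not given either, so p-values measure only the spread between these samples, which may be technical.

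Autophagy encloses portions of cytoplasm, worn organelles or intracellular bacteria in a growing membrane that closes into an autophagosome and then fuses with a lysosome. The ULK1 kinase complex starts the process, a lipid kinase complex marks the membrane with phosphatidylinositol phosphate, and ubiquitin-like conjugation enzymes attach ATG8 proteins (the LC3 and GABARAP families) to it. Cargo receptors such as p62, the product of *Sqstm1*, bind both ubiquitin and ATG8, and TFEB, TFE3 and MITF switch on many autophagy and lysosome genes. The values here are transcript levels, which do not measure autophagic flux or protein.

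Total counts ranged from 46285176 to 57629638 per library. *Scd2* itself (ENSMUSG00000025203, GRCm38 chr19:44293674-44306864, plus strand) was at 66.9, 77.8 and 62.7 CPM (counts scaled to the library total) in wild type replicates 1 to 3 and at 59.5, 38.0 and 39.8 CPM in *Scd2*-m/-m. All 3 *Scd2*-m/-m libraries were below all 3 wild-type libraries, with replicate 1 only just so, and the mean was 66.2% of wild type. The log2 fold change was -0.59 (SE 0.19), at a false discovery rate (FDR) of 0.1002 by edgeR's quasi-likelihood test, and it was -0.62 (FDR 0.0105) by limma-voom. With single libraries left out the fold change ran from -0.83 to -0.48. The FDR was lowest when *Scd2*-m/-m replicate 1 was dropped (8.9e-05) and highest when replicate 3 was (0.277). The deleted exons were not named in the material used, and the counts cover the whole gene. The paper reported a deeper loss of *Scd2* transcript in macrophages of this genotype, measured relative to housekeeping genes in several independent experiments. Of 8 macrophage markers, 1 was higher (*Cd68*) and 4 were lower (*Adgre1*, *Mertk*, *Csf1r* and *Lyz2*) in *Scd2*-m/-m. The summed level of the 8 was 37461 to 38369 CPM in wild type and 21448 to 21968 CPM in *Scd2*-m/-m. Much of each sum was *Lyz2*, the locus that carries the Cre in lysozyme M-Cre mice, at means of 22751 and 9029 CPM. The part of the inserted Cre in that difference was not tested. A list of 10 neutrophil markers summed to 11.2 to 11.6 CPM in wild type and 26.7 to 34.3 CPM in *Scd2*-m/-m. Of these, 8 were tested and 6 were higher. The B cell markers summed to 2.22 to 3.82 CPM in wild type and 5.43 to 7.02 CPM in *Scd2*-m/-m (*Cd79a* and *Cd79b* higher of 3 tested), and the dendritic cell markers to 0.947 to 1.48 and 1.83 to 2.99 CPM (*Ccr7* and *Flt3* higher of 5 tested). Mast cell and basophil markers summed to 0.217 to 0.453 and 0.555 to 1.07 CPM, while the sums of the progenitor, T and NK cell, erythroid and stromal lists overlapped between the genotypes. *Ncr1*, *Mcpt4* and *Tpsb2* were at 0. The part of these shifts in the results on autophagy genes was not tested. In bulk RNA, fewer cells of a type and less RNA per cell cannot be told apart.

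Most autophagy genes differed little between the genotypes, and 4 of the 48 rose in *Scd2*-m/-m macrophages at FDR 0.05 (edgeR's quasi-likelihood test). These were *Tecpr1* and *Plekhm1*, which act where autophagosomes meet lysosomes, *Atg12*, a ubiquitin-like protein of the conjugation machinery, and the transcription factor gene *Mitf*. The 4 genes are 8.33% of the list, whereas 17.5% of all 14778 genes tested were called in either direction. All 4 calls were of higher level, against a background of 9.65% of genes called higher, and none was of lower level by edgeR, where 7.84% of all genes were called lower. At an unadjusted p under 0.05 by edgeR's test there were 14 of the 48 autophagy genes, 11 higher and 3 lower. Of all 14778 genes tested, 4460 were under that p, 2356 higher and 2104 lower. DESeq2 and limma-voom called the same 4 genes. Limma-voom with sample quality weights called 13 of the 48, of which *Ambra1* and *Tfe3* were lower. It called 4507 of all 14778 genes, against 2585 by edgeR. Its weights were 2.10 for wild type replicate 2 and 3.05 for *Scd2*-m/-m replicate 2, and 0.51 to 0.80 for the other libraries. The calls with quality weights thus lean on 1 library of each genotype. The counts also depended on single libraries. The number of autophagy genes called was 5 without wild type replicate 1, 1 without wild type replicate 2 or *Scd2*-m/-m replicate 2, 2 without wild type replicate 3 or *Scd2*-m/-m replicate 3, and 5 without *Scd2*-m/-m replicate 1. *Tecpr1* was called in each of these. Calls over all genes fell as well, from 2585 to 1490 without wild type replicate 2 and to 1440 without *Scd2*-m/-m replicate 2. They numbered 2322 and 2288 without wild type replicates 1 and 3, and 2567 and 2021 without *Scd2*-m/-m replicates 1 and 3.

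The genotypes did not overlap at 14 of the 48 genes (29.2%), with 10 higher and 4 lower in every *Scd2*-m/-m library. Over all genes tested the share was 34.9%, with 2641 genes higher and 2510 lower. The median log2 fold change of the autophagy genes was 0.02 and that of all genes was 0.0039. In the plot of fold changes by role, 28 genes lie above 0 and 20 below. *Ulk1*, *Pik3c3*, *Pik3r4*, *Atg5*, *Atg16l2* and *Atg10*, of which *Atg5* at -0.02 was farthest from 0, changed sign under other library scalings. The changes were small in size: 47 genes (97.9%) had an absolute log2 fold change under 0.25, beside 65.4% of all genes tested. Autophagy genes were also more abundant than most, with a median of 55.5 CPM in wild type against 13.9 CPM over all genes tested, and their fold changes had a smaller error (median SE 0.066 against 0.099). For the 44 genes not called, the 95% intervals reached from -20.4% at the lowest bound (*Vamp8*) to 37.6% at the highest (*Atg4a*). Missing the threshold does not show that a gene was unaffected, and the interval of 10 of these 44 did not include 0 before adjustment.

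**Figure D1:**
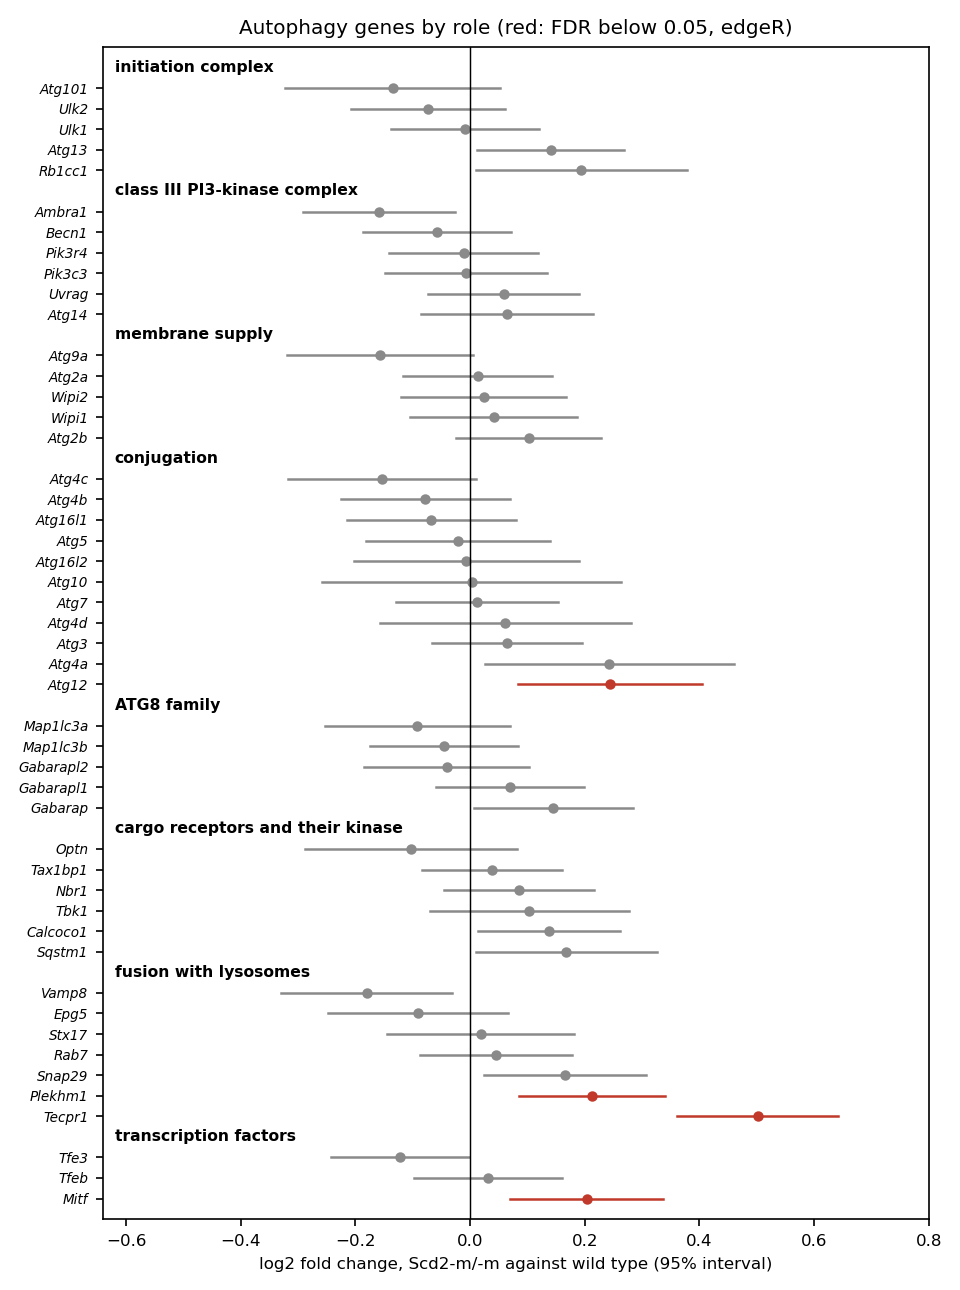
Log2 fold change of each of the 48 autophagy genes in *Scd2*-m/-m against wild type (x axis) with its 95% interval from the edgeR fit, grouped by role, with genes called at FDR 0.05 in red. *Tecpr1* stands alone at 0.50, the other 3 called genes lie between 0.20 and 0.24, and 34 of the 44 uncalled genes have intervals that include 0.

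*Tecpr1* (ENSMUSG00000066621, chr5:144194442-144223615, minus strand) encodes a tethering protein that binds the ATG12-ATG5 conjugate and links autophagosomes to lysosomes. It was at 168, 179 and 196 CPM in wild type replicates 1 to 3 and at 263, 259 and 247 CPM in *Scd2*-m/-m. The lowest *Scd2*-m/-m library was thus well above the highest wild-type library. The level was 41.6% higher (95% interval 28.5% to 56.0%), with a log2 fold change of 0.50 (SE 0.065, FDR 0.000132 by edgeR), and the gene was called in all 17 settings tried, with a fold change between 0.45 and 0.56. It was the only autophagy gene past an absolute log2 fold change of 0.5.

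*Plekhm1* (ENSMUSG00000034247, chr11:103364275-103412687, minus strand) encodes an adaptor that joins RAB7 and the tethering complex of lysosomes to ATG8 proteins. Its level was 260, 238 and 251 CPM in wild type and 297, 290 and 280 CPM in *Scd2*-m/-m, without overlap. The log2 fold change was 0.21 (SE 0.059, FDR 0.0236 by edgeR). The call was lost without wild type replicate 2 (0.18, FDR 0.156), *Scd2*-m/-m replicate 1 (0.19, FDR 0.0573) or *Scd2*-m/-m replicate 2 (0.21, FDR 0.106).

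*Mitf* (ENSMUSG00000035158, chr6:97807052-98021349, plus strand) was at 91.7, 88.5 and 86.0 CPM in wild type and at 95.7, 103 and 108 CPM in *Scd2*-m/-m. The lowest *Scd2*-m/-m library and the highest wild-type library were close, and the groups did not overlap. The log2 fold change was 0.20 (SE 0.062, FDR 0.0359 by edgeR). *Atg12* (ENSMUSG00000032905) showed the same arrangement, at 52.7, 48.6 and 48.4 CPM in wild type and 53.5, 59.0 and 64.8 CPM in *Scd2*-m/-m, with a log2 fold change of 0.24 (SE 0.075, FDR 0.0367 by edgeR). Both calls depended on single libraries. Without wild type replicate 2, wild type replicate 3, *Scd2*-m/-m replicate 2 or *Scd2*-m/-m replicate 3, *Mitf* stood at 0.20, 0.18, 0.20 and 0.17 and *Atg12* at 0.23, 0.22, 0.25 and 0.17 on the log2 scale, none of them called (FDR 0.101 to 0.153).

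**Figure D2:**
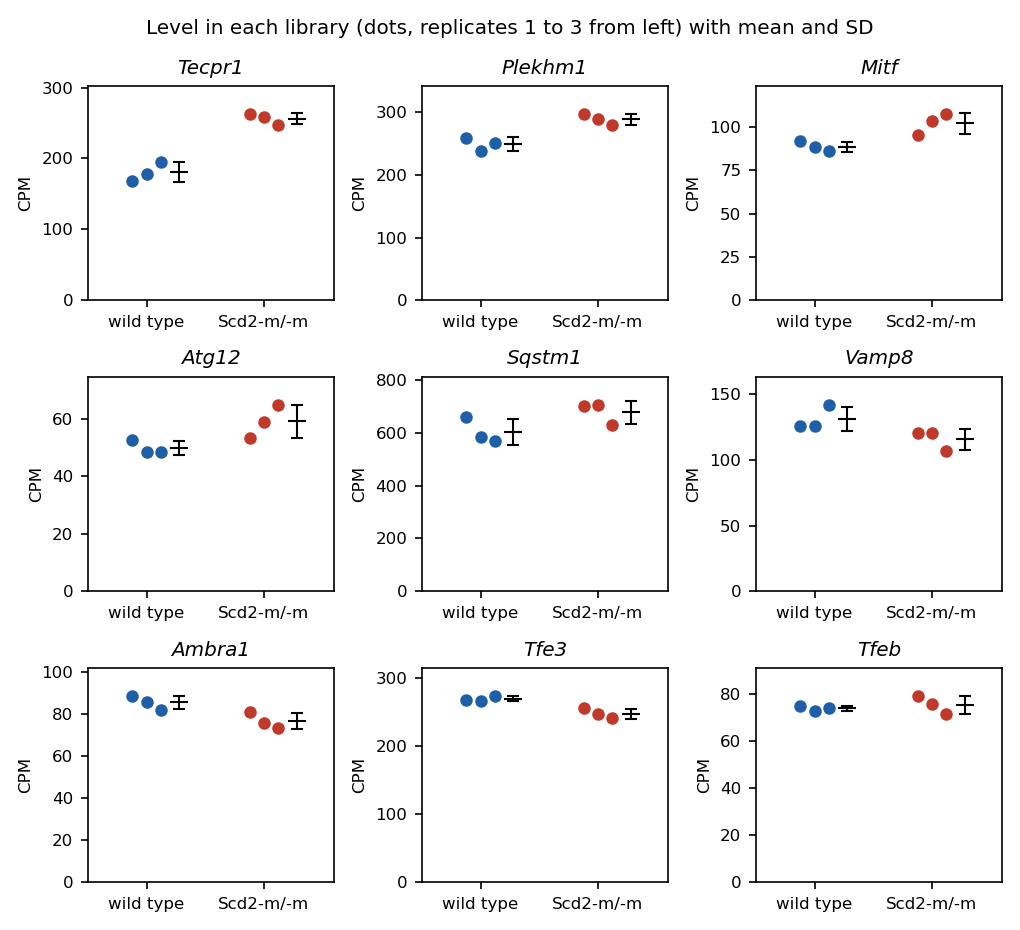
Level in CPM (y axis, from 0) of selected autophagy genes in each library, with wild type and *Scd2*-m/-m replicates 1 to 3 as dots and the mean with SD of the 3 libraries. *Tecpr1* shows the widest gap between the genotypes, from 196 CPM in the highest wild-type library to 247 CPM in the lowest *Scd2*-m/-m library.

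To show what sequence lies ahead of the 2 genes with the smallest p, and of the gene that holds the longest match to the binding site of the MiT/TFE factors, the 250 bases upstream of their RefSeq start sites are given on the gene's own strand (build GRCm38.p6). The windows are chr5:144223616-144223865 (minus strand) for *Tecpr1*, chr11:103412706-103412955 (minus strand) for *Plekhm1* and chr16:45158579-45158828 (plus strand) for *Atg3*. Capitals mark matches, on either strand, to the E-box CACGTG or to TGANNNNGC. The latter is a loose antioxidant-type pattern with any base at N, and a match to it does not mark a site bound by NRF2.
Tecpr1: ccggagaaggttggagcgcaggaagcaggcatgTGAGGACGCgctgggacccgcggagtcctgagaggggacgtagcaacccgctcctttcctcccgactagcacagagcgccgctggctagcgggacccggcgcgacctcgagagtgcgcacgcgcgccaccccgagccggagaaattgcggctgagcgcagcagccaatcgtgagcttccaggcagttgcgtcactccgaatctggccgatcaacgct
Plekhm1: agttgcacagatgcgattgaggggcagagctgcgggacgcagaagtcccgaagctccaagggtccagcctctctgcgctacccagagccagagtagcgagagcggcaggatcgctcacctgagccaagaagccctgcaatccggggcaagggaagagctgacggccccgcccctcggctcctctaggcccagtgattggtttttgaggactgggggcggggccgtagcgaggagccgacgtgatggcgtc
Atg3: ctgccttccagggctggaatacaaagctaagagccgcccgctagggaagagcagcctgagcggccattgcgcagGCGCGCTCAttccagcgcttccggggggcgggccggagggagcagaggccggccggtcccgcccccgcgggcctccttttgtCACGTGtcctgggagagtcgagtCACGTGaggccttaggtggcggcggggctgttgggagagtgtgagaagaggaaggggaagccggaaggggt

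*Tecpr1* held 1 match to TGANNNNGC and no E-box, *Plekhm1* held neither, and *Atg3* held 2 E-boxes and 1 TGANNNNGC in these windows. Of the 48 genes, 41 had at least 1 window in the RefSeq table, 51 windows in all. CACGTG was present in 5 of these windows (9.80%), those of *Atg14*, *Atg3*, *Atg5*, *Atg7* and *Tbk1*, beside 7.15% of all 32851 windows of that length, and none of these 5 genes was called. The longer TCACGTGA, which contains the E-box, was present in 1 window (1.96%), that of *Atg3*, beside 0.974%, and TGANNNNGC in 26 windows (51.0%) beside 41.3%. These are descriptions of letters in a short window and not of binding.

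Of the initiation complex, none of 5 genes was called by edgeR, and 2 (*Atg13* and *Rb1cc1*) had an unadjusted p under 0.05. *Atg13* (ENSMUSG00000027244), a scaffold of the ULK1 complex, had the smallest p. It was at 62.9, 57.8 and 61.5 CPM in wild type and 67.8, 67.0 and 66.0 CPM in *Scd2*-m/-m, all above wild type, with a log2 fold change of 0.14 (SE 0.059, FDR 0.127). The kinase gene *Ulk1* had the highest level of the complex per length and was at 141, 140 and 153 CPM against 148, 145 and 138 CPM, with overlap and a log2 fold change of -0.01 (95% interval -9.08% to 8.69%). *Rb1cc1*, which encodes the large scaffold FIP200, had a log2 fold change of 0.19 (FDR 0.144) with overlapping libraries, *Ulk2* of -0.07 and *Atg101* of -0.14. With quality weights in limma-voom, *Atg13* and *Rb1cc1* were called higher.

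The class III PI3-kinase complex, which makes the lipid signal that recruits the rest, had no gene called of 6 by edgeR and 1 at an unadjusted p under 0.05. That gene was *Ambra1* (ENSMUSG00000040506, chr2:91730134-91918849, plus strand), a Beclin 1 partner that had both the smallest p and the highest level per length of the group. Its level was 88.8, 86.0 and 82.3 CPM in wild type and 80.9, 75.98 and 73.3 CPM in *Scd2*-m/-m. The genotypes did not overlap, with a log2 fold change of -0.16 (SE 0.062, FDR 0.0954), and the gene was called lower without *Scd2*-m/-m replicate 1 (-0.20) and with quality weights (-0.17). *Becn1*, *Atg14*, *Pik3c3*, *Pik3r4* and *Uvrag* all overlapped, with log2 fold changes from -0.06 to 0.06.

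Of the genes that supply membrane and lipid to the growing autophagosome, none of 5 was called by edgeR and none had an unadjusted p under 0.05. *Atg9a*, which encodes a scramblase carried on small vesicles, was at 55.7, 52.5 and 52.3 CPM in wild type and 52.3, 49.1 and 42.6 CPM in *Scd2*-m/-m. The *Scd2*-m/-m libraries were lower without overlap, by a very narrow margin, and the log2 fold change was -0.16 (SE 0.076, FDR 0.182). The lipid transfer gene *Atg2a*, highest of the group per length, was at 140, 135 and 146 CPM against 146, 146 and 133 CPM, and the log2 fold change was 0.01. *Atg2b* was higher in every *Scd2*-m/-m library (0.10, FDR 0.267), and *Wipi1* and *Wipi2*, whose products bind the lipid signal, stood at 0.04 and 0.02.

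The conjugation machinery joins ATG12 to ATG5 and ATG8 proteins to lipid. Of its 11 genes, 1 was called, *Atg12* (9.09%, beside 17.5% of all genes tested). The protease gene *Atg4a* came next by p, at 9.59, 9.97 and 9.09 CPM in wild type and 10.3, 12.7 and 10.98 CPM in *Scd2*-m/-m. Its libraries did not overlap, and the log2 fold change was 0.24 (SE 0.10, FDR 0.119). *Atg3*, the enzyme that passes ATG8 proteins to lipid and the highest of the group per length, was at 49.8, 46.3 and 48.6 CPM against 48.8, 51.3 and 51.1 CPM, with overlap and a log2 fold change of 0.06. The other 8 genes overlapped. These were *Atg5*, *Atg7*, *Atg10*, *Atg16l1*, *Atg16l2*, *Atg4b*, *Atg4c* and *Atg4d*, with log2 fold changes from -0.15 (*Atg4c*, FDR 0.195) to 0.06 (*Atg4d*). *Atg5* (-0.02) and *Atg16l1* (-0.07), which form a complex with ATG12, were not called, and the difference of either from *Atg12* was not tested.

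None of the 5 ATG8 family genes was called by edgeR, and 1 had an unadjusted p under 0.05. *Gabarap* (ENSMUSG00000018567, chr11:69991143-69994951, plus strand) had the highest level per length of all 48 genes and was at 632, 571 and 610 CPM in wild type and 702, 649 and 654 CPM in *Scd2*-m/-m. All 3 *Scd2*-m/-m libraries lay above wild type, with a log2 fold change of 0.15 (SE 0.065, FDR 0.147). *Map1lc3b*, which encodes the LC3B protein commonly used as an autophagosome marker, was at 250, 233 and 242 CPM against 240, 243 and 221 CPM. The groups overlapped, and the change was -3.06% (95% interval -11.4% to 6.03%). *Gabarapl1* was at 82.4, 82.5 and 90.6 CPM against 88.3, 91.3 and 88.8 CPM (log2 fold change 0.07). *Gabarapl2* was at 37.4, 37.6 and 34.2 CPM against 36.1, 36.5 and 33.6 CPM (-0.04). *Map1lc3a*, the lowest of the family by CPM, was at 30.4, 29.6 and 30.5 CPM against 30.0, 29.7 and 25.3 CPM (-0.09), and its lowest value came from *Scd2*-m/-m replicate 3. These last 3 genes overlapped between the genotypes, with FDR of 0.450 to 0.734.

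The cargo receptors and the kinase TBK1, which phosphorylates them, had no gene called of 6 by edgeR and 2 at an unadjusted p under 0.05. *Sqstm1* (ENSMUSG00000015837, chr11:50199366-50210827, minus strand) was at 658, 584 and 567 CPM in wild type and 700, 704 and 627 CPM in *Scd2*-m/-m. Wild type replicate 1 lay above *Scd2*-m/-m replicate 3, so the genotypes overlapped. The log2 fold change was 0.17 (SE 0.073, FDR 0.140), a change of 12.3% with a 95% interval of 0.703% to 25.3%. It was called in 2 of 17 settings, without wild type replicate 1 (0.23, FDR 0.0354) and with quality weights (0.23). *Calcoco1* was at 95.01, 95.2 and 96.9 CPM against 110, 106 and 100.3 CPM, above wild type in every library (0.14, SE 0.058, FDR 0.124). *Nbr1* (0.09), *Tax1bp1* (0.04), *Optn* (-0.10) and *Tbk1* (0.10) overlapped. *Tbk1* lies 4.26 Mb from *Lyz2*, the locus that carries the Cre in lysozyme M-Cre mice, and its highest value, 100.4 CPM, was in *Scd2*-m/-m replicate 3. The other 5 libraries were between 78.0 and 84.1 CPM.

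Fusion with lysosomes had 2 called genes, *Tecpr1* and *Plekhm1*, of 7 tested (28.6%, beside 17.5% of all genes tested). The call of *Plekhm1* depended on single libraries, as given above. In each direction, 1 further gene had an unadjusted p under 0.05. Of the SNARE proteins that merge the membranes, *Snap29* was at 48.6, 48.5 and 50.4 CPM in wild type and 52.4, 53.5 and 59.6 CPM in *Scd2*-m/-m, all above (0.17, FDR 0.102). *Vamp8* was at 126, 126 and 142 CPM against 120, 120 and 107 CPM, all below (-0.18, FDR 0.0946). *Stx17*, their partner on the autophagosome, overlapped (0.02). *Rab7*, the GTPase of late endosomes and lysosomes and the highest of the group per length, was at 422, 395 and 380 CPM against 400.3, 411 and 425 CPM, with overlap and a log2 fold change of 0.05. *Epg5*, a tether recruited by RAB7, overlapped as well (-0.09).

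Of the 3 transcription factors that drive autophagy and lysosome genes, 1 was called (33.3%, beside 17.5% of all genes tested). *Tfe3* also had an unadjusted p under 0.05. *Mitf* rose, as given above. *Tfe3* (ENSMUSG00000000134, chrX:7762560-7775202, plus strand), the highest of the 3 per length, was at 268, 267 and 274 CPM in wild type and 256, 247 and 241 CPM in *Scd2*-m/-m. All 3 *Scd2*-m/-m libraries were lower, with a log2 fold change of -0.12 (SE 0.056, FDR 0.162), and it was called lower with quality weights in limma-voom. *Tfeb* (ENSMUSG00000023990) was at 75.0, 72.9 and 74.1 CPM against 79.3, 75.9 and 71.7 CPM, with overlap and a log2 fold change of 0.03 (95% interval -6.52% to 11.7%). *Tfec*, the remaining family member and not one of the 48 genes, was at 16.1, 16.2 and 18.0 CPM against 19.997, 19.8 and 18.7 CPM, above wild type in every library and not called (0.22, FDR 0.0679).

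Ratios of related genes within a library do not depend on how libraries are scaled, and 10 such ratios were compared with an exact two-sided permutation test, which with 3 libraries against 3 cannot give p below 0.1. The genotypes separated at 2 of the 10. The log2 ratio of *Mitf* to *Tfe3* was -1.55, -1.59 and -1.67 in wild type and -1.42, -1.26 and -1.16 in *Scd2*-m/-m, a mean difference of 0.32 (exact permutation p = 0.1, adjusted p = 0.5). The log2 ratio of *Tfeb* to *Tfe3* was -1.84, -1.87 and -1.88 against -1.69, -1.70 and -1.75, a difference of 0.15 (exact permutation p = 0.1, adjusted p = 0.5). Both ratios were higher in every *Scd2*-m/-m library, at the smallest p the design allows. They share *Tfe3* and are not separate results. That of *Mitf* to *Tfe3* had to separate, because every *Scd2*-m/-m library was higher for *Mitf* and lower for *Tfe3*. The other 8, among them *Ulk1* to *Ulk2*, *Map1lc3a* to *Map1lc3b*, *Gabarapl1* to *Gabarap* and *Sqstm1* to *Nbr1*, overlapped, with mean differences from -0.09 to 0.11 (adjusted exact permutation p 0.556 to 0.700).

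**Figure D3:**
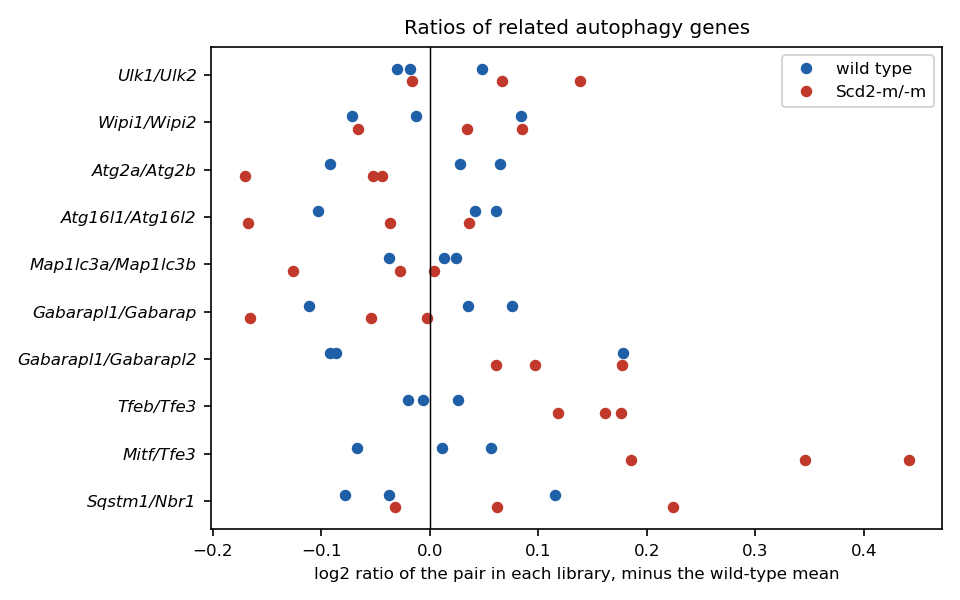
Log2 ratio of 10 pairs of related autophagy genes in each library, minus the mean of the wild-type libraries for that pair (x axis), with wild type and *Scd2*-m/-m replicates as separate dots. Only *Tfeb* to *Tfe3* and *Mitf* to *Tfe3* separate the genotypes among these pairs, with mean differences of 0.15 and 0.32.

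Levels were compared between genes per kilobase of merged exons, in CPM per kilobase. The lengths merge the exons of all annotated transcripts of a gene, so the order depends in part on the annotation. *Gabarap* led in wild type at 328 ± 16.7 (SD, n = 3), followed by *Sqstm1* at 180 ± 14.4 and *Rab7* at 153 ± 8.12, and the lowest were *Atg16l2* at 2.15 ± 0.065 and *Atg4d* at 1.67 ± 0.084. The span from lowest to highest was 196-fold. By CPM without length, the lowest in wild type was *Atg10*, at 5.09 CPM. *Gabarap* stood above *Sqstm1* by more than their spread, and *Sqstm1* stood above *Rab7* by more than the SD of either. Within the MiT/TFE factors *Tfe3* was at 29.1 ± 0.40, *Mitf* at 14.3 ± 0.47 and *Tfeb* at 13.1 ± 0.18 in wild type. *Mitf* and *Tfeb* were thus close in wild type, and stood at 16.5 ± 0.97 and 13.3 ± 0.67 in *Scd2*-m/-m. The order of the 48 genes was much the same in both genotypes: 16 kept their rank, and the largest move was that of *Tecpr1*, from rank 21 at 14.2 ± 1.08 to rank 13 at 20.1 ± 0.64.

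**Figure D4:**
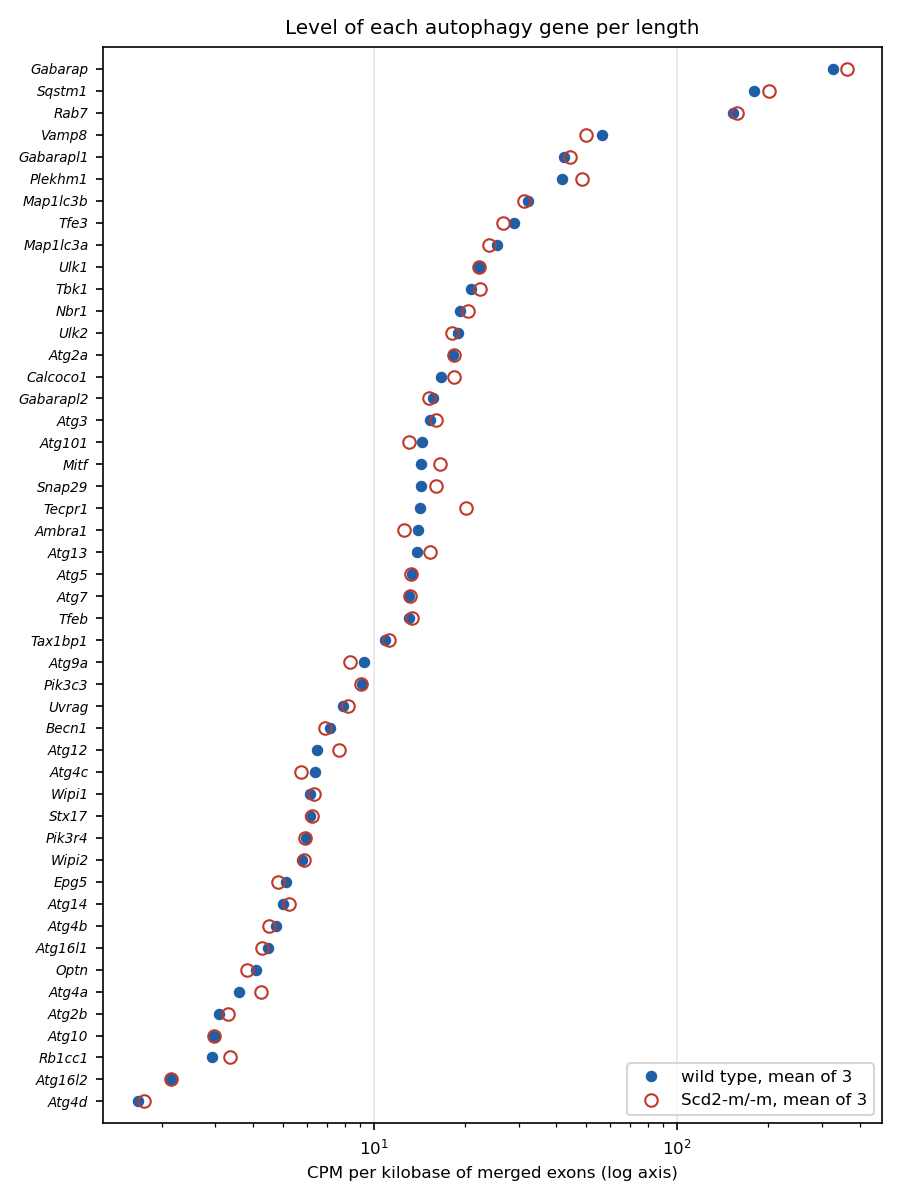
Mean level of each autophagy gene in CPM per kilobase of merged exons (x axis, log scale) in wild type and *Scd2*-m/-m, ordered by level. *Gabarap*, *Sqstm1* and *Rab7* stand highest in both genotypes, at 328, 180 and 153 in wild type, and *Atg4d* is lowest at 1.67.

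*Scd2*-m/-m replicate 3 gave the lowest of the 6 values for 16 of the 48 genes (33.3%), and it was the lowest library for 21.3% of all genes tested. It was the highest for 10 genes (20.8%, beside 21.8% of all genes). Some genes share exon sequence with others, and the handling of such reads in counting was not stated. *Sqstm1* shares 17.3% of its exon bases with *Mrnip* on the opposite strand (0.866 CPM), *Atg4d* shares 19.3% with *Kri1* (22.0 CPM, above *Atg4d* itself), and *Map1lc3b* has a near-identical copy, *Gm6055*, counted at 5.81 CPM. No overlap or near-identical copy was found for *Tecpr1*, *Mitf* or *Atg12*, and the transcript that overlaps *Plekhm1* was counted at 0.0125 CPM.

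Genes around the core machinery were read from the same fit, from lists written down with earlier results of these data known. Of 18 further genes of autophagosome formation, 5 were higher and 1 was lower (33.3% called, median log2 fold change 0.08), beside 17.5% of all genes tested called, 9.65% higher and 7.84% lower. *Tmem41b*, a lipid scramblase of the endoplasmic reticulum, was at 17.4, 18.3 and 16.3 CPM in wild type and 21.4, 23.5 and 24.3 CPM in *Scd2*-m/-m (0.41, FDR 0.00241 by edgeR), *Dapk1*, a death-associated kinase, fell by 0.55 on the log2 scale (FDR 0.0107), and *Bcl2l1*, which encodes the Beclin 1 partner BCL-XL, rose (0.24, FDR 0.0169). Of 20 further fusion genes, 4 were higher and none was lower by edgeR, DESeq2 or limma-voom, nor at an unadjusted p under 0.05, with a median of 0.09. That share called is near the 17.5% of all genes. *Lamp2*, a lysosomal membrane glycoprotein, was at 618, 593 and 633 CPM in wild type and 762, 756 and 830 CPM in *Scd2*-m/-m (0.35, FDR 0.00191 by edgeR), and *Arl8b* (0.21) and *Rilp* (0.35), which position lysosomes, also rose. Without wild type replicate 2 the higher calls in these lists were 1 of 18 and 1 of 20, without *Scd2*-m/-m replicate 2 they were 2 and 1, and leaving out single libraries lost the calls of *Bcl2l1* (FDR up to 0.0842), *Arl8b* (0.156) and *Rilp* (0.107), while *Tmem41b*, *Dapk1* and *Lamp2* remained called in all 16 alternatives.

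Of 19 receptors for organelles and aggregates, 2 were higher and 2 were lower (21.1% called, near the 17.5% of all genes, and median -0.01). Both higher calls were lost without wild type replicate 2, *Scd2*-m/-m replicate 2 or *Scd2*-m/-m replicate 3, and 1 was called lower without wild type replicate 2, wild type replicate 3, *Scd2*-m/-m replicate 1 or *Scd2*-m/-m replicate 3. *Wdfy3*, an adaptor for aggregates, was at 531, 598 and 585 CPM in wild type and 445, 453 and 471 CPM in *Scd2*-m/-m and fell by 0.32 on the log2 scale (FDR 0.00327 by edgeR). *Retreg1*, the reticulum receptor FAM134B, rose (0.29) and *Stbd1*, a glycogen receptor, fell by 0.71, and both calls were lost without single libraries (FDR up to 0.0771 and 0.121). DESeq2 did not call *Stbd1* with all libraries. Nutrient-sensing genes upstream of autophagy and TFEB were called in both directions, 4 higher and 6 lower of 30 (33.3% called, median -0.03), beside 9.65% of all genes called higher and 7.84% lower. *Fnip2*, a partner of folliculin, was at 241, 251 and 283 CPM against 377, 400.01 and 463 CPM (0.68, FDR 8.3e-05 by edgeR). *Rragd*, a Rag GTPase that acts with folliculin in the control of MiT/TFE factors, was at 5.48, 7.13 and 7.44 CPM against 10.9, 13.2 and 12.9 CPM (0.89, FDR 0.000246). *Prkab1*, a subunit of the AMP-activated kinase, fell by 0.34 (FDR 0.00182). These 3 were called in all 16 alternatives, and *Mtor* itself was not called (-0.12, FDR 0.224). Leaving out single libraries gave 3 to 5 higher and 2 to 5 lower calls among the 30 genes, the fewest lower without *Scd2*-m/-m replicate 3.

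Of 25 lysosomal genes known as targets of the MiT/TFE factors, 11 were higher and 1 was lower (median 0.16), beside 9.65% of all genes called higher and 7.84% lower. *Atp6v0d2*, a proton pump subunit, was at 29.2, 39.9 and 36.9 CPM in wild type and 57.8, 63.9 and 55.2 CPM in *Scd2*-m/-m (0.74, FDR 0.000531 by edgeR). It separated the genotypes and was called in all 16 alternatives. The number called higher was 6 without wild type replicate 2 and 8 to 10 without any other single library. NRF2 targets, listed with KEAP1 because p62 binds KEAP1, had 1 higher and 4 lower of 14 (35.7% called, median -0.02), beside 17.5% of all genes. *Osgin1* was at 29.4, 33.6 and 35.2 CPM against 20.5, 21.0 and 22.2 CPM and fell by 0.62 (FDR 9.2e-05 by edgeR), and *Gclc*, of glutathione synthesis, fell by 0.32 (FDR 0.0095). *Txnrd1*, thioredoxin reductase, fell by 0.30 (FDR 0.0277), a call lost without single libraries (FDR up to 0.130), and 2 to 4 genes of the list were called lower when a library was left out. The higher call was lost without wild type replicate 2, wild type replicate 3, *Scd2*-m/-m replicate 1 or *Scd2*-m/-m replicate 2, and the median ran from -0.11 to 0.05 over the 6 left-out libraries.

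**Figure D5:**
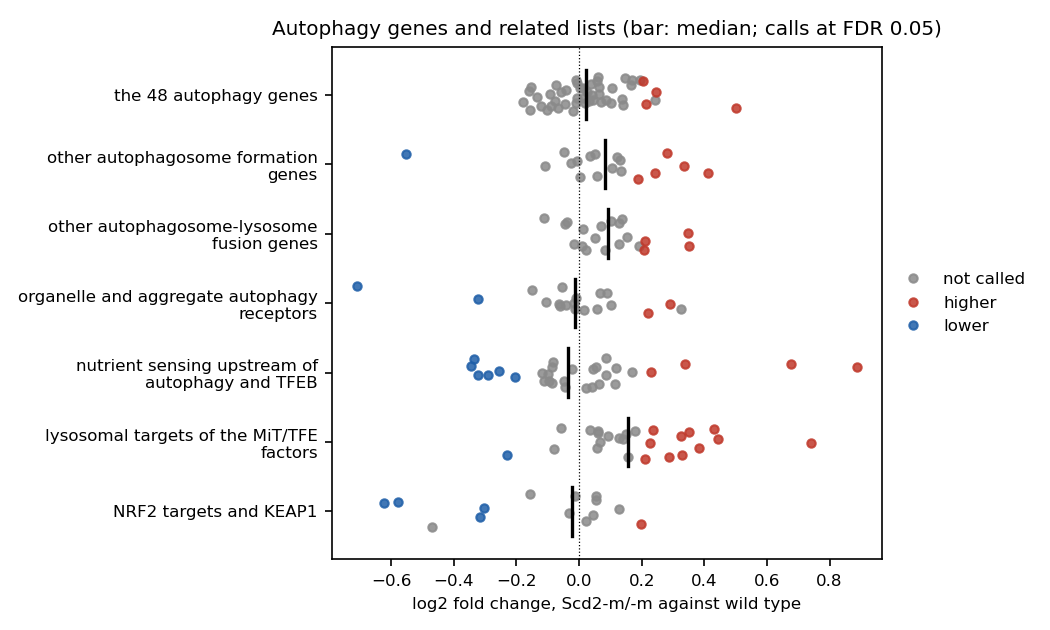
Log2 fold change in *Scd2*-m/-m against wild type (x axis) of the 48 autophagy genes and of 6 related lists, with 1 dot per gene coloured by its call at FDR 0.05 (edgeR) and a bar at each list's median. The 48 genes are tightly grouped around a median of 0.02, while the lysosomal targets have the highest median, 0.16.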

How the data were processed

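Polyadenylated RNA from 6 libraries of bone marrow-derived macrophages, 3 per genotype, was sequenced. The authors aligned the reads to the Ensembl mouse assembly with STAR and deposited counts per gene for each library. The counting tool, its strand setting and what a count stands for were each not given in the sources used here, and even values make up 60.9% to 64.9% of the counts from 1 to 20. The authors' notes name edgeR and limma. Their table of fold changes, p-values and FDR between the genotypes was not used.

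The table holds 40757 entries, of which 276 repeat a gene identifier and were left out. Libraries were grouped by the genotype and replicate in the labels. Total counts were 46285176 to 57629638 per library, and TMM factors 0.979 to 1.02. Genes were filtered with filterByExpr (14778 kept) and compared with edgeR 4.0.16 (quasi-likelihood test, R 4.3.3) with Benjamini-Hochberg adjustment over all genes tested, and a gene was called at FDR 0.05. CPM used TMM factors. Alternatives were other normalization factors, DESeq2 1.42.0, limma-voom (limma 3.58.1) with and without sample quality weights, other filters and thresholds, halved counts, a replicate block and leaving out each library. On simulated counts for 14778 genes in this 3 against 3 comparison, 59.4% of genes changed by 0.5 and 82.0% of genes changed by 1 on the log2 scale were called. The simulation took dispersions from the trend and gave all libraries the same quality. It changed far fewer genes than were called in the data, so these shares may differ from recovery in the data. Counts of replicates differed by more than sampling noise in every pair. Exon lengths and gene positions came from GENCODE (GRCm38) and upstream sequences from RefSeq (GRCm38.p6).

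The 48 genes, their roles, the related gene lists and the marker lists were chosen with earlier results of these data known. Named with values were *Scd2*, every called gene, the gene of each role with the highest level per length and with the smallest p, *Sqstm1*, the MiT/TFE factors, the ATG8 family and up to 3 called genes of each related list. Other genes given with values were chosen after their values were seen. Some genes that this rule names are not reported here.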

Additional observations from a re-analysis of the deposited data

How the results depend on the processing

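Of 784 values of single genes under the alternatives, 716 kept their direction and their side of the threshold, 15 passed it, 11 no longer passed it and 42 changed sign. The last were in 14 genes, none called, whose log2 fold change was at most 0.10 in size. Limma-voom with sample quality weights called 13 autophagy genes (11 higher and 2 lower) and 4507 of all genes, with a median of 0.0511 for the autophagy genes, and the median was 0.0534 with no normalization factors. At FDR 0.10 there were 6 autophagy genes called, 2 of them lower (*Ambra1* and *Vamp8*), and 3471 of all genes. At FDR 0.01, and likewise at FDR 0.05 with an absolute log2 fold change above 0.5, 1 gene was called, *Tecpr1*, and it was higher. All genes called then numbered 1331 and 1040. The cause of these shifts was not tested, apart from the stricter thresholds, which lower a count by construction. Leaving out a library gave 1 to 5 autophagy genes called, 1 to 5 higher and 0 to 1 lower, and 1440 to 2567 of all genes. With the replicate block, 4 autophagy genes and 2974 of all genes were called. Deviations of same-numbered libraries correlated at 0.10, -0.05 and 0.08, and not every library correlated best with its own number, so the numbers were not taken to pair the libraries.

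Signs changed at *Atg10* with RLE factors (-0.0029) and DESeq2 (-0.0048), at *Ulk1* (0.00049), *Pik3c3* (0.0025) and *Atg16l2* (0.0030) with upper-quartile factors, and with no factors at *Ulk1* (0.024), *Pik3c3* (0.027), *Pik3r4* (0.021), *Atg5* (0.012) and *Atg16l2* (0.026). With quality weights they changed at *Ulk1* (0.017), *Pik3c3* (0.047), *Atg16l2* (0.071), *Map1lc3b* (0.0071) and *Stx17* (-0.048). With single libraries left out, the log2 fold changes that crossed 0 ran from -0.054 to 0.039 at *Pik3c3*, -0.025 to 0.077 at *Wipi2*, -0.094 to 0.032 at *Atg5*, -0.039 to 0.066 at *Atg10*, -0.064 to 0.060 at *Stx17*, -0.045 to 0.010 at *Pik3r4*, -0.014 to 0.056 at *Atg2a*, -0.031 to 0.058 at *Atg7*, -0.087 to 0.089 at *Atg16l2*, -0.032 to 0.032 at *Ulk1*, -0.0047 to 0.069 at *Tfeb*, -0.016 to 0.158 at *Atg4d* and -0.0068 to 0.180 at *Tbk1*.

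With 3 libraries per genotype, small changes can be missed, and what a count stands for limits how firmly depth can be read. Recovery from simulated counts was not tested below 0.5 on the log2 scale, nor for the autophagy genes alone. Halving the counts left 4 autophagy genes called.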
